A study of Homo sapiens with 17 samples.

Results

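Nuclear hormone receptors are transcription factors that many small lipid-soluble ligands switch on or off. The genes described here are 9 of this family that have been tied to myeloid maturation: RARA and RARG, RXRA and RXRB, VDR, PPARD and PPARG, NR3C1, and NR4A1. They were chosen by symbol, each symbol was matched to 1 Ensembl gene, and they make up 9 of the 58278 gene IDs counted in every library. All 9 passed the filter on low counts in each comparison.

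The libraries came from MOLM13, an established human cell line of acute myeloid leukaemia; all groups, controls included, share its MLL-AF9 fusion. In a first experiment a non-targeting CRISPR control (NT, 3 libraries) stood beside cells edited in HOXA9 (HOXA9_KO, 3 libraries) and in SAFB (SAFB_KO, 3 libraries). A second experiment had its own non-targeting control (NT_MEIS1ex, 4 libraries) beside cells edited in MEIS1 (MEIS1_KO, 4 libraries). HOXA9 and MEIS1 are homeobox transcription factors that MLL fusions keep high, and SAFB is a nuclear matrix-associated protein. The series title places HOXA9 and SAFB in a common repressive complex, so the comparisons ask which genes are higher or lower once each protein is targeted. No drug or ligand is named for any group. The labels do not say whether edited cells were clones or pools, which guides were used, or how long after editing RNA was taken.

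In outline, receptors of this family work as follows. RAR proteins bind retinoic acid, VDR binds the active form of vitamin D and PPAR proteins bind fatty acids and their derivatives, and each of these pairs with an RXR protein on DNA. Without ligand, RAR-RXR pairs hold NCOR corepressors on target genes, and ligand exchanges these for coactivators. The glucocorticoid receptor NR3C1 waits in the cytoplasm with chaperones until it binds steroid, and NR4A1 is an immediate-early gene with no known classical ligand. In myeloid leukaemia the family is best known for RARA, the receptor fused to PML in acute promyelocytic leukaemia, where retinoic acid drives the blasts to mature. Active vitamin D pushes several myeloid lines towards monocytes.

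RAR, VDR and PPAR sites are built from the hexamer AGGTCA. RefSeq promoter windows (GRCh38.p14, 250 bases before a transcript start to 50 after) were available for 8 of the 9 genes, 24 windows in all; VDR was not matched. Below, 1 window is shown for each of 3 genes. RXRA and PPARG had the largest increases of the 9 genes and RARA is the main retinoic acid receptor of these cells. RARA had 3 windows, RXRA 2 and PPARG 6. For RARA and PPARG the window shown is the one with the most motif matches. The other RARA windows and some of the PPARG windows held no match. Capitals mark letters that matched a searched motif.
RARA chr17:40308930-40309229 (+): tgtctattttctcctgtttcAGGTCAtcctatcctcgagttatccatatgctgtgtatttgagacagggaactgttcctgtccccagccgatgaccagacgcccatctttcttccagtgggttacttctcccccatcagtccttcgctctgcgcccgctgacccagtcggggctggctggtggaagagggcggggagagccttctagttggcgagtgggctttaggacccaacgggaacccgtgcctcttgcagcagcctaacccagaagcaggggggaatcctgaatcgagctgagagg
RXRA chr9:134326205-134326504 (+): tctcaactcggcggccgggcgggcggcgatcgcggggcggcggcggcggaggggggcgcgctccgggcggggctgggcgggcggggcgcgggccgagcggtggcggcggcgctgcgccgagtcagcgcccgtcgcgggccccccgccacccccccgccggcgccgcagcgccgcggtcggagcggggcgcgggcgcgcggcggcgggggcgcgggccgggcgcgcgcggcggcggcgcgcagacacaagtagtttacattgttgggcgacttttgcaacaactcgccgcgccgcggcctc
PPARG chr3:12287118-12287417 (+): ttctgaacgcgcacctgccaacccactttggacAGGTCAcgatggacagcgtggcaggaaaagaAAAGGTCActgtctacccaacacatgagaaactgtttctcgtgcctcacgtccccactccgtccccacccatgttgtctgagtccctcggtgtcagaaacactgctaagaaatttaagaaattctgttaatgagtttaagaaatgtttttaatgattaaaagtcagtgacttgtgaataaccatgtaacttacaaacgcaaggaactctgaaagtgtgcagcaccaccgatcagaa
AGGTCA, searched on both strands, was found in 4 of the 24 windows, in RARA at -230 from the start and in PPARG at -217 and -184 in the window shown and once in a pair of overlapping windows of a later start. It occurs in 13.8% of all 35116 windows of that length. AAAGGTCA, which contains AGGTCA and overlaps it at -184, was found in 1 member window (PPARG, at -186) and in 1.22% of all windows. TGATTTAT, a joint site of HOXA9 and PBX proteins, was found in 1 member window, that of a PPARG start at chr3:12301725-12302024, and in 0.846% of all windows. The windows of RARG, RXRA, RXRB, PPARD, NR3C1 and NR4A1 held none of these letters. The counts are per gene and do not say which start was used, and a match is only a run of letters.

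The library facts that bear on these genes are few. Each library held 30737884 to 67842104 reads counted in genes in the first experiment and 23264176 to 33232459 in the second. Levels are given as CPM, the count of a gene relative to the TMM-scaled size of its library, computed within each experiment, so that levels of the first and second experiment are not on 1 scale. Mitochondrial rRNA took 22.5% to 35.5% of gene reads in the first experiment and at most 0.0094% in the second. By group it took 22.5% to 28.4% in NT, 31.95% to 35.5% in HOXA9_KO and 24.9% to 27.05% in SAFB_KO. Every HOXA9_KO library lay above every NT and SAFB_KO library. Within the first experiment the share of reads outside genes was 16.4% to 18.1% in NT, 8.65% to 9.27% in HOXA9_KO and 10.6% to 12.7% in SAFB_KO. The part of these shares in the results was not tested. RNA of each targeted gene was lower in its own group, HOXA9 at 40.9 ± 0.97 CPM in NT against 21.4 ± 0.45 in HOXA9_KO (SD, n = 3), SAFB at 38.3 ± 4.07 against 20.7 ± 1.42 in SAFB_KO (SD, n = 3), and MEIS1 at 32.4 ± 0.82 against 11.2 ± 1.10 in MEIS1_KO (SD, n = 4). MEIS1 was also lower in HOXA9_KO, at 16.8 ± 0.82 CPM against 49.1 ± 1.06 in NT.

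All 10 myeloid leukaemia genes on a marker list (CD33, FLT3, SPI1 and others) were above 0 in every group. That alone does not settle the label, since all 8 lymphoid markers were also above 0 in SAFB_KO and MEIS1_KO. In NT, FLT3 averaged 675 CPM, SPI1 74.2 and CD33 59.8, while ANPEP averaged 1.11. The 10 monocyte and macrophage markers moved with the groups. Their summed level was 4198 to 4315 CPM in NT, 28657 to 31592 in HOXA9_KO and 12312 to 13977 in SAFB_KO. In the second experiment it was 3077 to 4706 in NT_MEIS1ex against 6654 to 7025 in MEIS1_KO. These sums are mostly LYZ, which is also on the myeloid leukaemia list. LYZ alone averaged 4152 CPM in NT, 29694 in HOXA9_KO, 12820 in SAFB_KO, 3675 in NT_MEIS1ex and 6664 in MEIS1_KO. All 8 of these markers that were tested rose in HOXA9_KO and in SAFB_KO, and all 7 tested rose in MEIS1_KO; scaled to nuclear protein-coding counts, CSF1R was no longer called in SAFB_KO (adjusted p = 0.943). None of the 10 was at 0 in any group. Erythroid and megakaryocyte, lymphoid, and epithelial and fibroblast markers summed to at most 25.8 CPM in any library, and PF4 was at 0 in every group. In bulk RNA a change in the share of mature cells and a change in RNA per cell cannot be told apart, and the part of the monocyte markers in the receptor changes was not tested.

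Called below means a Benjamini-Hochberg adjusted p under 0.05 over all tested genes, by the quasi-likelihood test of edgeR. In HOXA9_KO, 5 of the 9 receptor genes rose (RARA, RXRA, VDR, PPARG and NR3C1), 2 fell (RARG and PPARD) and RXRB and NR4A1 were not called. The background was high: 57.5% of 18876 genes were called in this comparison, 27.6% higher and 29.9% lower. Taking libraries that do not overlap in place of the test, 5 of the 9 genes were higher and 3 lower (RARG, PPARD and NR4A1), where 29.1% and 33.5% of all tested genes were. In SAFB_KO the count was also 5 higher, 2 lower and 2 not called, against a background of 35.5% called, 20.2% higher and 15.3% lower. The libraries did not overlap for 4 genes that were higher and 2 that were lower, beside 24.1% and 22.3% of all genes. In MEIS1_KO only RARA was called, higher, against a background of 8.81% of 15744 genes, 4.97% higher and 3.84% lower. No receptor gene had groups that did not overlap there, where 8.43% of all genes were higher and 7.28% lower in every library. The median log2 change of the 9 genes was 0.37 in HOXA9_KO, beside -0.07 over all tested genes, 0.11 beside -0.02 in SAFB_KO, and 0.0038 beside 0.0018 in MEIS1_KO. HOXA9_KO and SAFB_KO were set against the same NT libraries, so their changes share that control.

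**Figure D1:**
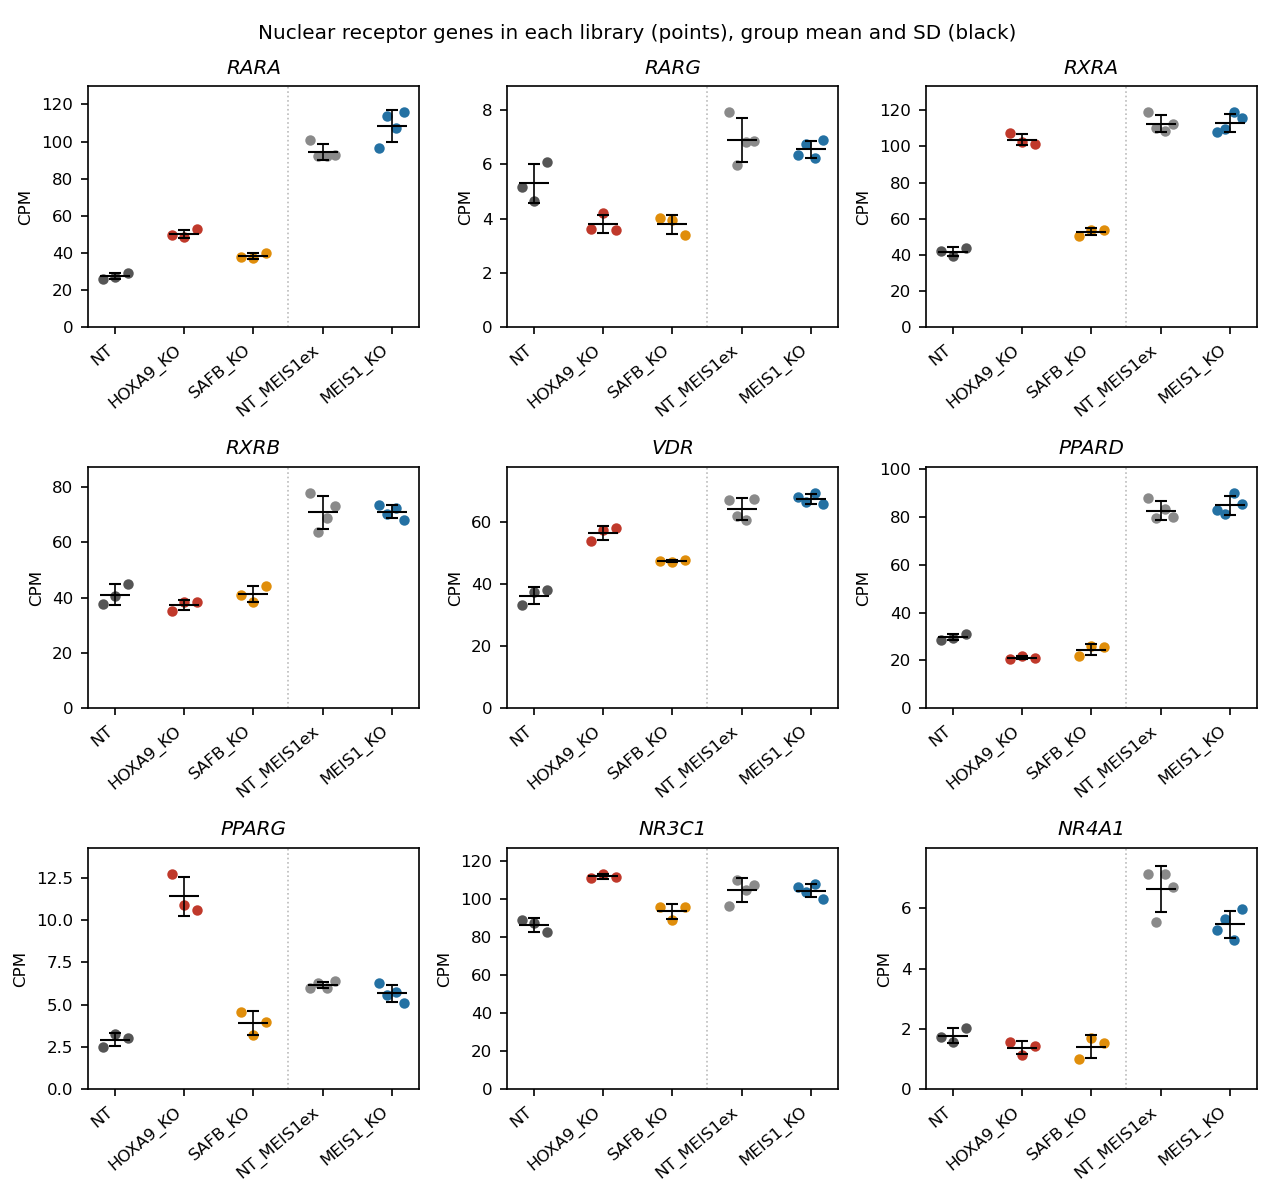
CPM of the 9 receptor genes in each of the 17 libraries (points), with the mean and SD of each group in black; the dotted line parts the 2 experiments, which were scaled separately. RARA, RXRA, VDR, PPARG and NR3C1 in the 3 HOXA9_KO libraries lie above the 3 NT libraries, and no gene separates the MEIS1_KO from the NT_MEIS1ex libraries.

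Scaling matters for small changes here. When libraries were scaled to their summed counts in nuclear protein-coding genes, with no TMM factor, the median log2 change of all genes moved by -0.25 in HOXA9_KO and by -0.14 in SAFB_KO, and the share of calls that were higher went from 48.0% to 23.5% and from 56.9% to 23.6%. Under that scaling 2861 of 18876 tested genes were called higher and 9293 lower in HOXA9_KO. The counts were 1712 and 5535 in SAFB_KO, and 979 and 450 of 15744 in MEIS1_KO. The 5 increases in HOXA9_KO were still called under that scaling. Where it ends or turns a call of one of the 9 receptor genes, that is said beside the gene.

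RARA encodes retinoic acid receptor alpha (ENSG00000131759.17, chr17:40309192-40357643, plus strand, GRCh38). It measured 26.2, 26.8 and 29.5 CPM in the NT libraries, 49.7, 48.5 and 52.7 in HOXA9_KO and 37.8, 37.4 and 40.2 in SAFB_KO. The 3 groups did not overlap, with SAFB_KO between the others. RARA rose by a log2 change of 0.87 ± 0.05 (SE, adjusted p = 9.09e-20), or 1.83-fold, in HOXA9_KO and by 0.48 ± 0.05 (adjusted p = 2.35e-10), or 1.40-fold, in SAFB_KO. In the second experiment it measured 100.7, 92.2, 92.0 and 93.0 CPM in NT_MEIS1ex and 96.7, 113.7, 107.1 and 116.0 in MEIS1_KO, so the lowest MEIS1_KO library lay inside the control range. The change in MEIS1_KO, 0.20 ± 0.06 with a 95% interval of 0.07 to 0.32, just passed (adjusted p = 0.0432). It did not pass with limma-voom (adjusted p = 0.0507), nor without MEIS1_KO replicate 2, 3 or 4 (adjusted p = 0.150, 0.105 and 0.120) or NT_MEIS1ex replicate 2, 3 or 4 (0.0739, 0.119 and 0.112). Exons of RARA share 17.9% of their bases with antisense genes (AC080112.3 and RARA-AS1), and no label states the strand setting of the counting.

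RARG encodes retinoic acid receptor gamma (ENSG00000172819.16, chr12:53210567-53232980, minus strand) and went the other way. Its levels were 5.15, 4.66 and 6.08 CPM in NT, 3.61, 4.20 and 3.59 in HOXA9_KO and 4.01, 3.96 and 3.396 in SAFB_KO. Both knockout groups lay below every NT library and overlapped each other. RARG fell by 0.48 on the log2 scale in HOXA9_KO (SE 0.13, adjusted p = 0.00174) and by 0.48 in SAFB_KO (SE 0.13, adjusted p = 0.00268). The difference between HOXA9_KO and SAFB_KO was 0.0012 with a 95% interval of -0.28 to 0.29. In the second experiment RARG ranged from 5.97 to 7.92 CPM in the controls and from 6.21 to 6.89 in MEIS1_KO, a change of -0.08 with an interval of -0.29 to 0.14 that was not called (adjusted p = 0.699).

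To set genes side by side, CPM was divided by the kilobases of all annotated exons of a gene, not of the transcripts in use. On that measure RARA was the more abundant of the pair in every library. RARA made up 84.0% to 86.2% of the summed RARA and RARG level in NT, 92.6% to 94.1% in HOXA9_KO and 91.1% to 92.8% in SAFB_KO. The share was 93.2% to 94.4% in NT_MEIS1ex and 94.3% to 94.9% in MEIS1_KO. RARB, the remaining RAR gene, is outside the 9 and is named after its values were seen. It stood at 2.49 ± 0.23 CPM in NT and 1.29 ± 0.15 in HOXA9_KO (SD, n = 3) and fell by 0.94 on the log2 scale (SE 0.20, adjusted p = 7.39e-05), while its change of -0.42 in SAFB_KO was not called (adjusted p = 0.0747).

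RXRA encodes retinoid X receptor alpha, a partner shared by the RAR, VDR and PPAR proteins (ENSG00000186350.9, chr9:134317098-134440585, plus strand). It measured 42.3, 39.2 and 43.9 CPM in NT, 107.3, 102.4 and 101.5 in HOXA9_KO and 50.5, 54.0 and 53.9 in SAFB_KO. All 3 groups were apart, and every HOXA9_KO library was above 100 CPM. RXRA rose by 1.31 ± 0.04 (adjusted p = 4.82e-30), or 2.48-fold, in HOXA9_KO and by 0.34 ± 0.05 (adjusted p = 3.19e-08), or 1.26-fold, in SAFB_KO. MEIS1_KO libraries gave 108.0, 109.5, 118.8 and 115.5 CPM against 119.1, 110.2, 108.4 and 112.5 in their controls. These ranges lay across each other, the change was 0.0046 (adjusted p = 0.970), and the 95% interval of -0.10 to 0.11 leaves out changes of the size seen in HOXA9_KO and SAFB_KO.

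RXRB encodes the beta form of the same partner (ENSG00000204231.10, chr6:33193588-33200688, minus strand) and was called in none of the 3 knockouts. It ranged from 37.6 to 45.1 CPM in NT, from 35.2 to 38.4 in HOXA9_KO and from 38.5 to 44.2 in SAFB_KO. Its changes were -0.13 in HOXA9_KO (95% interval -0.25 to -0.01, adjusted p = 0.0559) and 0.0076 in SAFB_KO (interval -0.11 to 0.13, adjusted p = 0.937). The first of these sat at the threshold: it passed with no filter on low counts (adjusted p = 0.0444), when genes averaging under 2 CPM were dropped (0.00628), without NT replicate 1 (0.00417) and under nuclear protein-coding scaling, where it was -0.38 (5.89e-07). In MEIS1_KO it ranged from 68.2 to 73.7 CPM against 63.9 to 77.9 in the controls and was not called (adjusted p = 0.980). Exons of RXRB share 6.22% of their bases with SLC39A7 on the other strand.

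The balance of the pair differed between groups. The shares themselves rest on the annotated exon lengths, 11083 bases for RXRA and 3920 for RXRB. Per kilobase of exon, RXRA was 25.5%, 25.6% or 28.5% of the summed RXRA and RXRB level in the NT libraries and 48.3%, 48.5% or 51.9% in HOXA9_KO. In SAFB_KO the share was 30.1% to 33.2%, above all NT libraries and below all HOXA9_KO libraries. The NT_MEIS1ex and MEIS1_KO libraries overlapped at 35.1% to 37.9% and 34.1% to 37.5%. RXRG, the remaining RXR gene, had no count in any HOXA9_KO, SAFB_KO, NT_MEIS1ex or MEIS1_KO library.

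**Figure D2:**
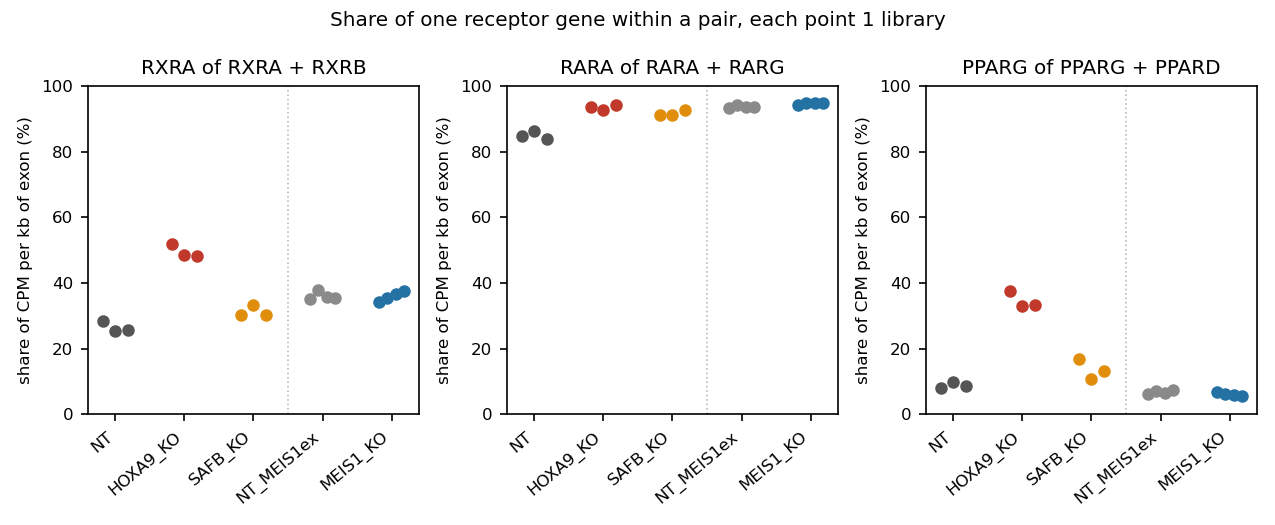
Share of RXRA, RARA and PPARG within its pair, in percent of the summed CPM per kilobase of exon, with 1 point per library and the 2 experiments parted by a dotted line. RXRA makes up 25.5% to 28.5% of its pair in NT and 48.3% to 51.9% in HOXA9_KO, and PPARG goes from 7.96% to 9.78% in NT to 32.9% to 37.6% in HOXA9_KO.

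VDR, the vitamin D receptor (ENSG00000111424.10, chr12:47841537-47943048, minus strand), rose in both knockouts of the first experiment. It measured 33.2, 37.5 and 38.2 CPM in NT, 53.7, 57.3 and 58.1 in HOXA9_KO and 47.4, 47.1 and 47.8 in SAFB_KO. The 3 groups did not overlap and SAFB_KO again stood between the others. The log2 changes were 0.64 ± 0.05 in HOXA9_KO (adjusted p = 1.197e-15, 1.56-fold) and 0.39 ± 0.05 in SAFB_KO (adjusted p = 1.46e-08, 1.31-fold). In MEIS1_KO the libraries read 68.1, 66.4, 69.4 and 65.8 CPM against 67.1, 62.0, 60.6 and 67.5. They overlapped, and the change of 0.07 (interval -0.04 to 0.18) was not called (adjusted p = 0.469).

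PPARG, the receptor best known from fat cells and alternatively activated macrophages (ENSG00000132170.19, chr3:12287368-12434356, plus strand), had the largest fold change of the 9 genes in HOXA9_KO from a low level. It measured 2.52, 3.26 and 3.02 CPM in NT and 12.7, 10.9 and 10.6 in HOXA9_KO, at 351 or more reads in each HOXA9_KO library. The groups were far apart, and PPARG rose by 1.97 ± 0.12 (adjusted p = 2.73e-19), or 3.92-fold. In SAFB_KO it measured 4.57, 3.19 and 3.99 CPM, and replicate 2 lay within the NT range. The SAFB_KO change of 0.42 ± 0.14 was called (adjusted p = 0.0152) but was lost without NT replicate 1 (adjusted p = 0.118), without SAFB_KO replicate 1 (0.134) and under nuclear protein-coding scaling (0.28, adjusted p = 0.112). In the second experiment PPARG measured 5.997, 6.27, 6.01 and 6.38 CPM in the controls and 6.30, 5.55, 5.73 and 5.08 in MEIS1_KO. The change of -0.12 (interval -0.32 to 0.09) was not called (adjusted p = 0.513).

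PPARD, the broadly expressed delta form (ENSG00000112033.13, chr6:35342558-35428191, plus strand), moved opposite to PPARG. It measured 28.6, 29.5 and 31.0 CPM in NT, 20.8, 21.9 and 20.9 in HOXA9_KO and 22.0, 26.0 and 25.6 in SAFB_KO. Every knockout library lay below every NT library. PPARD fell by 0.49 on the log2 scale in HOXA9_KO (SE 0.06, adjusted p = 4.38e-09) and by 0.27 in SAFB_KO (SE 0.06, adjusted p = 4.08e-04). MEIS1_KO ranged from 81.0 to 90.0 CPM and its controls from 79.4 to 87.8, with no call (change 0.04, interval -0.07 to 0.15, adjusted p = 0.716). Per kilobase of exon PPARD remained the more abundant of the pair in all libraries: PPARG made up 7.96% to 9.78% in NT, 32.9% to 37.6% in HOXA9_KO and 10.8% to 16.99% in SAFB_KO.

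NR3C1, the glucocorticoid receptor (ENSG00000113580.14, chr5:143277931-143435512, minus strand), had the highest CPM of the 9 genes in NT. It measured 89.0, 87.6 and 82.4 CPM in NT, 110.9, 113.2 and 111.4 in HOXA9_KO and 95.7, 89.1 and 95.9 in SAFB_KO. The HOXA9_KO libraries stood well clear, while the lowest SAFB_KO library cleared the highest NT library by a narrow margin. NR3C1 rose by 0.37 ± 0.04 in HOXA9_KO (adjusted p = 8.29e-12, 1.29-fold). Its change of 0.11 ± 0.04 in SAFB_KO (adjusted p = 0.0184) was lost when genes averaging under 2 CPM were dropped (0.219), and without NT replicate 3 (0.109), SAFB_KO replicate 1 (0.0753) or SAFB_KO replicate 3 (0.110). Under nuclear protein-coding scaling it turned to -0.03 in SAFB_KO (adjusted p = 0.626) and shrank to 0.12 in HOXA9_KO (adjusted p = 0.00520). MEIS1_KO, at 99.8 to 107.6 CPM, overlapped its controls at 96.1 to 110.1 CPM, with a change of -0.0045 and an interval of -0.11 to 0.10 (adjusted p = 0.972).

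NR4A1 (ENSG00000123358.19, chr12:52022832-52059507, plus strand) had the lowest mean level per kilobase of exon of the 9 genes in each of the 5 groups, and as few as 32 reads in a SAFB_KO library. It measured 1.73, 1.56 and 2.04 CPM in NT, 1.56, 1.15 and 1.43 in HOXA9_KO and 0.996, 1.71 and 1.53 in SAFB_KO. The HOXA9_KO libraries lay just under the NT libraries, but neither change was called, at -0.36 in HOXA9_KO (interval -0.81 to 0.09, adjusted p = 0.163) and -0.31 in SAFB_KO (interval -0.74 to 0.13, adjusted p = 0.286). Under nuclear protein-coding scaling the HOXA9_KO change was -0.61 and was called (adjusted p = 0.0152). In the second experiment NR4A1 read 7.14, 5.53, 7.12 and 6.72 CPM in the controls and 5.28, 5.65, 4.95 and 5.99 in MEIS1_KO. Only NT_MEIS1ex replicate 2 fell within the MEIS1_KO range; the change of -0.28 ± 0.11 was not called (adjusted p = 0.119) and was called without that library (-0.36, adjusted p = 0.0403). Exons of NR4A1 share 10.3% of their bases with the antisense gene AC025259.3.

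The paralogs of NR4A1, named here after their values were seen, were lower in HOXA9_KO. NR4A3 had 37 to 76 reads in the NT libraries and 1 to 3 in HOXA9_KO, 1.01 ± 0.28 CPM against 0.0733 ± 0.04, with an adjusted p of 5.60e-09. NR4A2 fell by 0.70 on the log2 scale (SE 0.20, adjusted p = 0.00315), from 2.62 to 1.64 CPM. In SAFB_KO NR4A3 was also called lower (log2 change -1.12, adjusted p = 0.00986), and NR4A2 was not called (adjusted p = 0.204). NR4A2 was not called in MEIS1_KO either (adjusted p = 0.525).

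**Figure D3:**
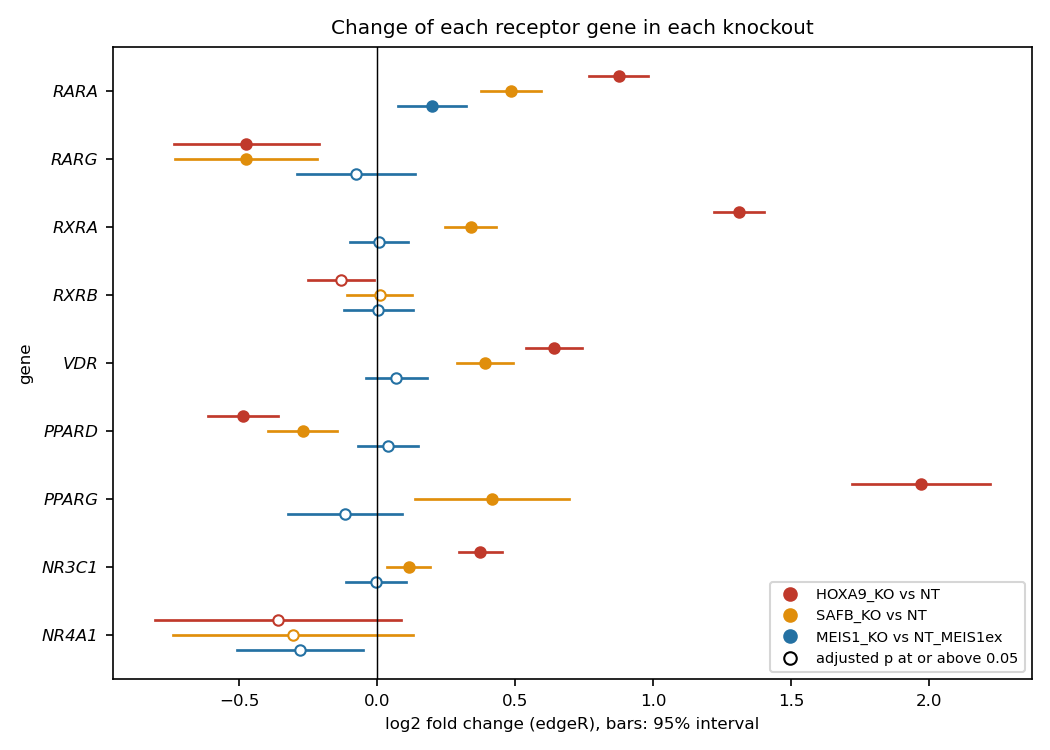
Log2 fold change of the 9 receptor genes in HOXA9_KO, SAFB_KO and MEIS1_KO against the controls of the same experiment, with 95% intervals; filled points had an adjusted p under 0.05. PPARG (1.97) and RXRA (1.31) in HOXA9_KO lie farthest right, and 8 of the 9 MEIS1_KO points are open.

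The size of the change differed between the knockouts for most of these genes. HOXA9_KO and SAFB_KO were compared directly, which does not use the NT level. RXRA was 1.96-fold higher in HOXA9_KO than in SAFB_KO (log2 0.97 ± 0.04, adjusted p = 5.34e-24), PPARG 2.94-fold higher (1.56 ± 0.13, adjusted p = 6.08e-15), RARA 1.31-fold higher, NR3C1 1.196-fold higher and VDR 1.19-fold higher. PPARD was lower by 0.22 on the log2 scale (log2 change -0.22 ± 0.07, adjusted p = 0.00673), a call lost without SAFB_KO replicate 2 (adjusted p = 0.0700) or replicate 3 (0.0685). That gave 5 higher and 1 lower of 9, where 40.6% of all tested genes were called, 20.1% higher and 20.5% lower. Libraries that did not overlap numbered 5 higher and 2 lower (PPARD and RXRB), beside 23.6% and 24.6% of all genes. RXRB, at -0.14 (interval -0.26 to -0.02, adjusted p = 0.0638), was lower in every HOXA9_KO library than in every SAFB_KO library without being called, and it sat at the threshold. It passed under nuclear protein-coding scaling (-0.25, adjusted p = 7.02e-04), with no filter on low counts (0.0451), when genes averaging under 2 CPM were dropped (0.0497), when only the compared groups were fitted (0.0388), and without NT replicate 1 (0.0326), NT replicate 3 (0.0376) or SAFB_KO replicate 2 (0.0198). RARG and NR4A1 were not called (intervals -0.28 to 0.29 and -0.53 to 0.42).

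The HOXA9 and MEIS1 effects were compared as a difference of changes over all 17 libraries, each against its own controls. RARA (0.72), RXRA (1.35), VDR (0.61), PPARG (2.13) and NR3C1 (0.42) had a higher log2 change in HOXA9_KO than in MEIS1_KO and PPARD a lower one (-0.48), 5 higher and 1 lower of 9, where 24.5% and 19.7% of 18836 genes were called. NR3C1 lost this call under nuclear protein-coding scaling (0.10, adjusted p = 0.232), and RARG gained it (-0.68, adjusted p = 9.66e-04), as did RXRB (-0.42, adjusted p = 2.38e-04). RARG also gained it when genes averaging under 2 CPM were dropped (-0.45, adjusted p = 0.0213) and without NT replicate 2 (0.0409) or NT_MEIS1ex replicate 1 (0.0329).

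For SAFB against MEIS1 the difference was called for RARA (0.30), RXRA (0.34), VDR (0.33), PPARG (0.54) and PPARD (-0.30), 4 higher and 1 lower, beside 12.4% and 8.49% of all tested genes. All 4 of the higher calls were lost under nuclear protein-coding scaling, with adjusted p from 0.0835 for RXRA to 0.287 for RARA. PPARG lost the call without NT replicate 1 (adjusted p = 0.0941), SAFB_KO replicate 1 (0.0971) or SAFB_KO replicate 3 (0.0518), and PPARD without SAFB_KO replicate 1 (0.0606). RARG gained a call under nuclear protein-coding scaling (-0.57, adjusted p = 0.0123), when genes averaging under 2 CPM were dropped (-0.46, adjusted p = 0.0370) and without NT_MEIS1ex replicate 1 (0.0359).

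The order of levels was taken in mean CPM per kilobase of exon. It depends on the annotated exon lengths, from 3920 bases for RXRB to 11083 for RXRA, which may differ from the transcripts in use. In NT_MEIS1ex, for example, NR4A1 ranked below PPARG per kilobase but above it in CPM (6.63 against 6.16). In NT, RXRB (10.5 ± 0.96, SD, n = 3) and NR3C1 (9.41 ± 0.38) led and overlapped. PPARD (6.67 ± 0.28), VDR (6.40 ± 0.47) and RARA (5.81 ± 0.36) followed, each overlapping its neighbour. RXRA (3.77), RARG (1.03), PPARG (0.646) and NR4A1 (0.244) came last and were each apart from the next. In HOXA9_KO, NR3C1 (12.2) and RARA (10.6) led, VDR (9.94), RXRB (9.53) and RXRA (9.36) overlapped in a row behind them, and PPARG (2.51) stood above RARG (0.742). In SAFB_KO the order opened like NT with RXRB (10.5) and NR3C1 (10.2), and VDR (8.36) and RARA (8.12) stood above PPARD (5.50). In NT_MEIS1ex, RARA (19.97), PPARD (18.5) and RXRB (18.1) overlapped at the top, with NR3C1 (11.4), VDR (11.3) and RXRA (10.2) overlapping behind them. In MEIS1_KO, RARA (22.9) stood apart above PPARD (19.0). The 2 control groups differed in level for the same genes, from 1.21-fold for NR3C1 to 3.73-fold for NR4A1, all higher in NT_MEIS1ex; the experiments were scaled apart and this difference was not tested.

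As a description of shared pattern, log2 CPM was centred on the controls of each experiment and each receptor was set beside 9555 genes of at least 5 CPM over the 17 libraries. The 2 genes most like RXRA were RAPGEF1 (Pearson r = 0.995) and STIM1 (0.994). For RARA they were CST3 (0.992) and LMNA (0.987), for VDR GNAI2 (0.991) and NCSTN (0.988), and for PPARG GSR (0.986) and PGD (0.985). NR3C1 was most like HSDL2 (0.976) and LYN (0.961), and PPARD like FMNL3 (0.968) and NAV1 (0.966). RARG lay nearest to TACC2 (0.925) and NTSR1 (0.902), RXRB to SLC17A9 (0.844) and DDX23 (0.794), and NR4A1 to C15orf40 (0.837) and DPH1 (0.808). The points share libraries, depth and the means of 5 groups, and no test was made.

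Genes of the receptors' pathways were taken from lists chosen by function, with earlier results of these data known. Most genes named are among the 3 with the smallest p of a list in a comparison. The list counts stand beside the share of all tested genes called. That share was 57.5% in HOXA9_KO (27.6% higher, 29.9% lower) and 35.5% in SAFB_KO (20.2% and 15.3%). It was 8.81% in MEIS1_KO (4.97% and 3.84%). CD38, an ectoenzyme gene that retinoic acid induces in myeloid cells, went from 15.5 ± 0.42 CPM in NT to 88.5 ± 2.38 in HOXA9_KO (SD, n = 3), a rise of 2.51 ± 0.05 (adjusted p = 1.30e-39), and to 27.7 ± 0.90 in SAFB_KO. PRAM1 (1.44) and ASB2 (1.39), both induced by retinoic acid in promyelocytic leukaemia, also rose in HOXA9_KO. In all, 6 of 10 tested retinoic acid target genes rose and 2 fell in HOXA9_KO, with a list median of 0.94 beside -0.07 for all tested genes. In SAFB_KO 2 rose, CD38 (0.84) and ASB2 (0.70), and 1 fell, DHRS3 (-1.14), with a list median of 0.03. None of the 10 was called in MEIS1_KO by edgeR, with 5 at an unadjusted p under 0.05, and CD38 changed by 0.22 (adjusted p = 0.126). RARB, itself a classical target, fell in HOXA9_KO as given above. Nuclear protein-coding scaling gave 5 higher and 2 lower in HOXA9_KO, where DHRS3 lost its call (adjusted p = 0.0559). It gave 2 higher and 2 lower in SAFB_KO, and 1 higher in MEIS1_KO, ASB2 (0.33, adjusted p = 0.0498). Of all 18876 tested genes, 2861 were higher and 9293 lower in HOXA9_KO under that scaling. In SAFB_KO 1712 were higher and 5535 lower, and in MEIS1_KO 979 and 450 of 15744.

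Only 5 of 15 genes for making, storing or breaking down retinoids were tested, the others being too low. Over all tested genes, 57.5% were called in HOXA9_KO, 35.5% in SAFB_KO and 8.81% in MEIS1_KO. DHRS9, a retinol dehydrogenase, fell by 0.49 on the log2 scale in HOXA9_KO (76.1 against 107 CPM), RDH11 fell by 0.32 and ALDH1A3, which makes retinoic acid, fell by 1.41 from 1.989 to 0.744 CPM. The count was 1 higher and 3 lower in HOXA9_KO, 0 and 2 in SAFB_KO, and 1 and 2 in MEIS1_KO. It became 0 higher and 4 lower in HOXA9_KO and in SAFB_KO under nuclear protein-coding scaling. Of all 18876 tested genes, that scaling called 2861 higher and 9293 lower in HOXA9_KO. In SAFB_KO it called 1712 higher and 5535 lower. ALDH1A3 was lower in all 3, by 1.07 in SAFB_KO and by 0.63 in MEIS1_KO (log2 changes -1.07 and -0.63). Other genes of the list differed between knockouts. DHRS9 rose in MEIS1_KO (0.22, adjusted p = 0.0241), and DHRS3 rose in HOXA9_KO (0.82) and fell in SAFB_KO (-1.14).

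The vitamin D list had the highest median of the 10 function lists in each knockout. The lists were chosen with earlier results of these data known, so this order is only a description. Of 12 tested genes of vitamin D metabolism and response, 9 rose and 3 fell in HOXA9_KO (median 2.38), 8 rose and 2 fell in SAFB_KO (median 0.85), and 4 rose and 1 fell in MEIS1_KO (median 0.37). These counts were the same under nuclear protein-coding scaling. That scaling called 2861 of all 18876 tested genes higher and 9293 lower in HOXA9_KO. In SAFB_KO it called 1712 higher and 5535 lower, and in MEIS1_KO 979 and 450 of 15744. With TMM scaling, 27.6% of all tested genes were higher and 29.9% lower in HOXA9_KO. The shares were 20.2% and 15.3% in SAFB_KO and 4.97% and 3.84% in MEIS1_KO. THBD, the thrombomodulin gene, went from 26.7 ± 1.55 CPM in NT to 191 ± 10.7 in HOXA9_KO and 89.9 ± 0.57 in SAFB_KO, rises of 2.84 and 1.76 on the log2 scale. SEMA6B rose by 4.14 in HOXA9_KO, from 3.60 to 62.6 CPM, and by 1.29 in SAFB_KO. G0S2 fell in all 3 knockouts, by 0.76 in HOXA9_KO, by 1.76 in SAFB_KO (3.32 to 0.971 CPM, adjusted p = 3.42e-09) and by 0.55 in MEIS1_KO. CYP27A1, a mitochondrial sterol hydroxylase that can activate vitamin D, rose by 5.10 in HOXA9_KO, from 0.313 to 10.4 CPM. In MEIS1_KO, TREM1 rose by 0.91 and the monocyte marker CD14 by 1.23. CYP24A1, the classical VDR target that breaks vitamin D down, was at 0 in NT, SAFB_KO and MEIS1_KO. CD14 also stands on the monocyte marker list, and the part of that list in these counts was not tested.

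Among 13 tested PPAR target genes, mostly of fatty acid uptake and oxidation, 8 rose in HOXA9_KO and none fell, with a median of 0.46. In SAFB_KO 7 rose and none fell (median 0.28). Among all tested genes, 27.6% were higher and 29.9% lower in HOXA9_KO, and 20.2% and 15.3% in SAFB_KO. CD36, a fatty acid and scavenger receptor also found on monocytes, measured 43.4 ± 1.93 CPM in NT, 133 ± 3.79 in HOXA9_KO and 66.6 ± 2.08 in SAFB_KO. PLIN2, which coats lipid droplets, rose by 1.07 in HOXA9_KO, and ACADVL, an enzyme of fatty acid oxidation, by 0.66 in HOXA9_KO and 0.28 in SAFB_KO. CD36 was the only 1 of 12 called in MEIS1_KO, where it rose by 0.67 ± 0.09 (adjusted p = 3.66e-04). Of all tested genes, 8.81% were called in MEIS1_KO. With nuclear protein-coding scaling the counts were 7 higher and 3 lower in HOXA9_KO and 5 higher and 0 lower in SAFB_KO. That scaling called 2861 of all 18876 tested genes higher and 9293 lower in HOXA9_KO. In SAFB_KO it called 1712 higher and 5535 lower.

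The glucocorticoid target genes were split. Of 13 tested, 6 rose and 3 fell in HOXA9_KO (median 0.21) and 3 rose and 3 fell in SAFB_KO (median 0.07). The background was 57.5% of all tested genes called in HOXA9_KO, 35.5% in SAFB_KO and 8.81% in MEIS1_KO. SGK1, a kinase gene, rose in all 3 knockouts, by 1.98 in HOXA9_KO (9.12 to 36.0 CPM), 0.74 in SAFB_KO and 0.82 in MEIS1_KO, where it was the only call of 12. FKBP5, the chaperone gene that glucocorticoids induce most regularly, fell by 0.68 in HOXA9_KO, from 51.8 ± 3.43 to 32.3 ± 0.37 CPM, while NFKBIA rose by 0.76. In SAFB_KO, TSC22D3, another standard target, fell by 0.63 and the metallothionein gene MT2A by 0.62. Scaled to nuclear protein-coding counts the split was 5 higher and 5 lower in HOXA9_KO and 2 higher and 5 lower in SAFB_KO. Scaled so, 2861 of all 18876 tested genes were higher and 9293 lower in HOXA9_KO. In SAFB_KO 1712 were higher and 5535 lower.

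Of 12 chaperones and cochaperones that hold NR3C1, 6 rose and 3 fell in HOXA9_KO and 7 rose and 1 fell in SAFB_KO. None was called in MEIS1_KO by edgeR, with 4 at an unadjusted p under 0.05. Beside these counts, 57.5% of all tested genes were called in HOXA9_KO, 35.5% in SAFB_KO and 8.81% in MEIS1_KO. FKBP5, given above, is also on this list and had its smallest p in HOXA9_KO (-0.68, adjusted p = 1.90e-16). HSPA8, a constitutive HSP70 gene, went from 2221 ± 65.6 CPM in NT to 2802 ± 43.8 in HOXA9_KO and 2881 ± 61.2 in SAFB_KO. FKBP4, which counters FKBP5 on the receptor, rose by 0.37 and 0.34. Nuclear protein-coding scaling turned the HOXA9_KO split to 2 higher and 8 lower and the SAFB_KO split to 5 and 3. That scaling called 2861 of all 18876 tested genes higher and 9293 lower in HOXA9_KO. In SAFB_KO it called 1712 higher and 5535 lower.

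Of 14 immediate-early genes that are induced beside NR4A1, 7 rose and 6 fell in HOXA9_KO and 5 rose and 3 fell in SAFB_KO. For all tested genes, the share called was 57.5% in HOXA9_KO, 35.5% in SAFB_KO and 8.81% in MEIS1_KO. FOS rose by 0.76 in HOXA9_KO and 0.67 in SAFB_KO, from 60.4 ± 4.84 CPM in NT to 103 ± 2.98 and 96.5 ± 1.65. JUN rose by 1.37 and 0.81 and JUNB by 0.86 in HOXA9_KO. ATF3 fell in all 3 knockouts, by 1.64 in HOXA9_KO (10.2 to 3.27 CPM, adjusted p = 4.92e-17), by 1.45 in SAFB_KO and by 0.41 in MEIS1_KO. EGR2 rose by 0.77 in MEIS1_KO, the only gene of the list called higher there. The HOXA9_KO split became 6 higher and 7 lower, and the SAFB_KO split 5 and 4, with nuclear protein-coding scaling. That scaling called 2861 of all 18876 tested genes higher and 9293 lower in HOXA9_KO. In SAFB_KO it called 1712 higher and 5535 lower. NR4A1 itself, at under 2.1 CPM in the whole first experiment, was not called in either of its knockouts.

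**Figure D4:**
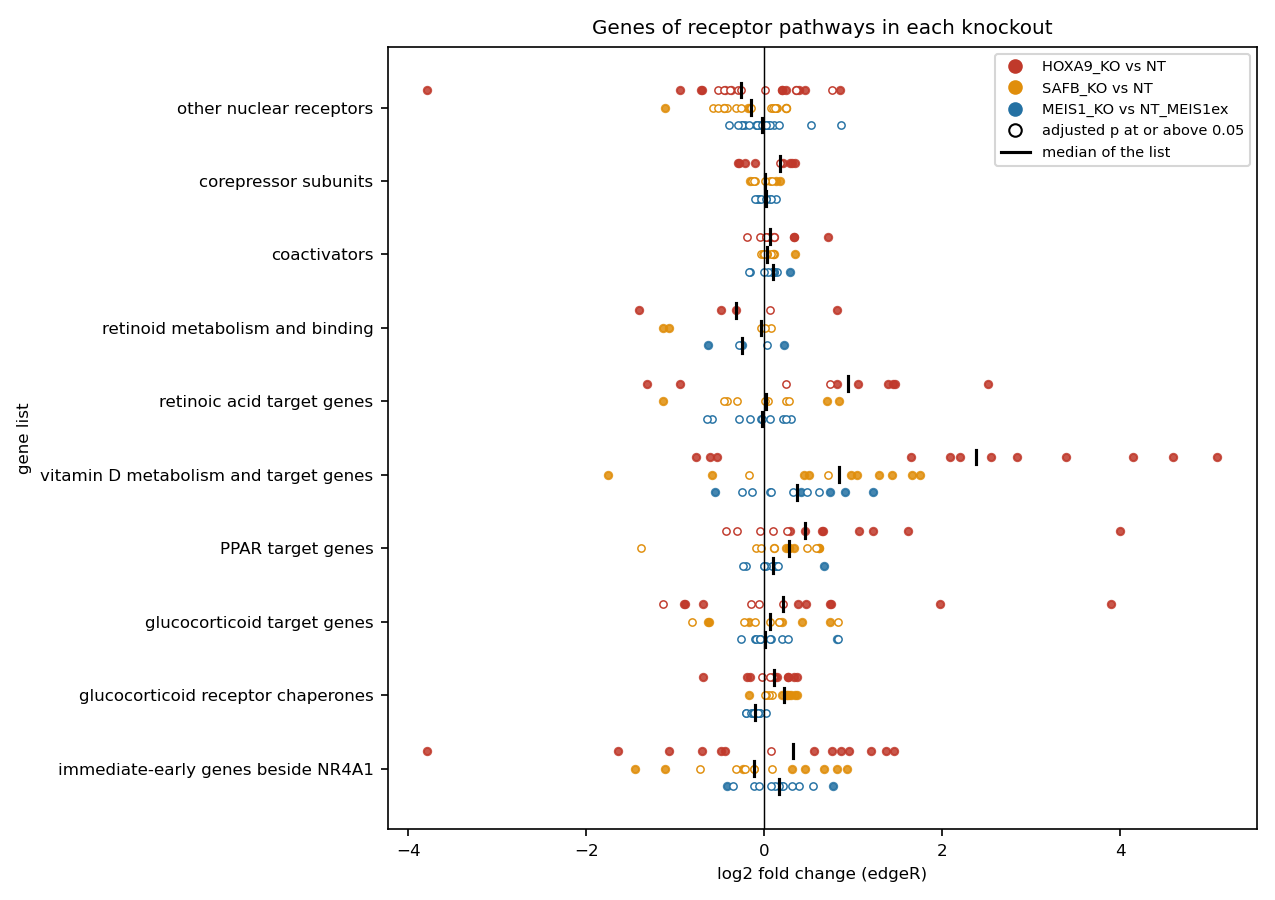
Log2 fold change of every tested gene of 10 function lists in HOXA9_KO, SAFB_KO and MEIS1_KO; filled points had an adjusted p under 0.05 and black bars are list medians. The vitamin D list reaches farthest right in HOXA9_KO (median 2.38), while the corepressor and coactivator lists stay near 0.

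Corepressor and coactivator RNAs, the cofactors of all these receptors, were counted in the same way. Of 9 corepressor subunits, 4 rose and 4 fell in HOXA9_KO, with HDAC3, the deacetylase of the NCOR complex, at 0.31, NRIP1 at 0.29 and TBL1XR1 at -0.29. In SAFB_KO 2 rose, HDAC3 (0.18) and NRIP1 (0.13), and 1 fell, NCOR1 (-0.16). Of 11 tested coactivators, 4 rose and none fell in HOXA9_KO, with PPARGC1B, a coactivator of PPAR and estrogen-related receptors, at 0.72, NCOA3 at 0.34 and CREBBP at 0.34. PPARGC1B (0.34), NCOA3 (0.11) and PRMT1 (0.10) rose in SAFB_KO and NCOA3 (0.29) in MEIS1_KO. Across all tested genes, 57.5% were called in HOXA9_KO, 35.5% in SAFB_KO and 8.81% in MEIS1_KO. With 11 coactivators tested, their counts are not read as a result about the list. Nuclear protein-coding scaling called 2861 of all 18876 tested genes higher and 9293 lower in HOXA9_KO. In SAFB_KO it called 1712 higher and 5535 lower. Under nuclear protein-coding scaling no corepressor was called higher in HOXA9_KO or SAFB_KO and 4 were called lower in each, and the coactivators split 2 higher and 7 lower in HOXA9_KO and 1 and 3 in SAFB_KO. The named increases that lost their call there were HDAC3, NRIP1 and CREBBP in HOXA9_KO (adjusted p = 0.129, 0.492 and 0.0794) and HDAC3, NRIP1, NCOA3 and PRMT1 in SAFB_KO (0.357, 0.933, 0.600 and 0.422), where NRIP1, NCOA3 and PRMT1 also changed sign, to -0.0062, -0.03 and -0.04. PPARGC1B was still called higher in both.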

How the data were processed

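RNA was measured by rRNA-depleted RNA-seq in 17 MOLM13 libraries. The deposited values are raw counts of reads per gene, made by the authors with Trim Galore, STAR 2.7.10a and HTSeq 1.99.2 on hg38, per the submitters' processing notes; HTSeq's rows for reads outside genes were left out of library sizes. The files of the MEIS1 experiment hold whole numbers in the same layout, deposited without a header (other files likewise), and were used as counts. No label or header states the annotation release or strand setting of the counting; gene positions are from GENCODE 29, where 55109 of 58278 IDs matched with version and 2828 under another version. No 2 libraries held identical values.

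Counts were fitted with edgeR 4.0.16 (R 4.3.3; filterByExpr with a minimum count of 10, TMM, robust quasi-likelihood test) over the 9 libraries of the first experiment and the 8 of the second, and over all 17 for differences between effects. A call is a Benjamini-Hochberg adjusted p under 0.05 over all tested genes; the SE is the log2 change divided by the root of F. The labels do not say that replicates came from separate cultures, so p-values measure the spread between libraries, which may be technical. The biological coefficient of variation was 4.63% in the first experiment and 6.75% in the second. The scripts were tested on simulated data. Alternatives were other scalings (RLE, nuclear protein-coding counts), filters, DESeq2 1.42.0, limma-voom 3.58.1, a replicate block and leaving out each library.

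The 9 genes and the function lists were chosen with earlier results of these data known. All 9 genes were named, the 3 genes of each list with the smallest adjusted p among those called in a comparison, and for each of the 9 the 2 genes with the highest Pearson r. The genes CYP26A1, DHRS3, FKBP5, NR4A2, NR4A3, RARB and STRA6 stand on 2 lists.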

Additional observations from a re-analysis of the deposited data

Results flagged for a closer look

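In the groups of 4 libraries, 1 of 18 sets of member values had a library far from the others: RARA measured 100.7 CPM in NT_MEIS1ex replicate 1, where the other three controls lay between 92.0 and 93.0. Chance gives about 1 in 20 such sets. Without that library RARA was still called higher in MEIS1_KO.

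The test of the difference between effects singled out 11 values. For the HOXA9 minus the MEIS1 effect these were RARA at 0.72, RXRA at 1.35, VDR at 0.61, PPARD at -0.48, PPARG at 2.13 and NR3C1 at 0.42. For the SAFB minus the MEIS1 effect they were RARA at 0.30, RXRA at 0.34, VDR at 0.33, PPARD at -0.30 and PPARG at 0.54. The experiments also differ in mitochondrial rRNA (22.5% to 35.5% of gene reads against at most 0.0094%), and its part in these differences was not tested.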

How the results depend on the processing

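Of the member values under all alternatives, 905 kept direction and call, 23 gained and 27 lost a call, and 50 changed sign; the only value with a call that changed sign was NR3C1 in SAFB_KO, -0.0255 under nuclear protein-coding scaling. The cause of each shift was not tested. The other sign changes were of values near 0. Under nuclear protein-coding scaling RXRB became -0.13 in SAFB_KO, NR3C1 0.0227 in MEIS1_KO, RARG -0.11 between HOXA9_KO and SAFB_KO, and RXRB -0.16 and NR3C1 -0.0475 in the SAFB minus MEIS1 effect. When genes averaging under 2 CPM were dropped, RXRB was -0.0471 in SAFB_KO and -0.0615 in the SAFB minus MEIS1 effect, NR3C1 was 0.0070 in MEIS1_KO and RARG -0.00075 between HOXA9_KO and SAFB_KO. With no filter RXRA was -0.0041 and RXRB -0.0049 in MEIS1_KO, RARG -0.00026 between the first 2 knockouts and NR4A1 0.0064 in the SAFB minus MEIS1 effect. That NR4A1 value was 0.0191 with RLE size factors and 0.0157 with DESeq2, and RARG was -0.0013 with limma-voom. Leaving out 1 library, RXRB in SAFB_KO ranged from -0.0526 to 0.0821; in MEIS1_KO RXRA ranged from -0.0206 to 0.0331, RXRB from -0.0440 to 0.0520 and NR3C1 from -0.0425 to 0.0196. Between HOXA9_KO and SAFB_KO RARG ranged from -0.0731 to 0.0437 and NR4A1 from -0.24 to 0.12. NR4A1 ranged from -0.12 to 0.0846 in the HOXA9 minus MEIS1 effect and from -0.18 to 0.18 in the SAFB minus MEIS1 effect, and RXRB from -0.0403 to 0.0844 in the latter.

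The count of members called in MEIS1_KO went from 1 to 0 with limma-voom, and the count for the SAFB minus MEIS1 effect from 5 to 2 (both lower) under nuclear protein-coding scaling. That scaling also moved the share of all calls that were higher from 56.5% to 68.5% in MEIS1_KO, from 49.4% to 29.5% between HOXA9_KO and SAFB_KO, and from 55.5% to 19.4% and 59.3% to 14.9% in the HOXA9 and SAFB minus MEIS1 effects. Leaving out 1 library gave 0 to 1 members called in MEIS1_KO, 3 to 6 in the SAFB minus MEIS1 effect, and 751 to 1772 genes called in MEIS1_KO. No label says whether replicate numbers pair the samples. Deviations of same-numbered libraries correlated at -0.05 to 0.04 for NT with HOXA9_KO and 0.0024 to 0.09 for NT with SAFB_KO. For NT_MEIS1ex with MEIS1_KO the range was -0.32 to 0.14. Libraries of other numbers gave -0.03 to 0.08, -0.08 to 0.04 and -0.24 to 0.30 in the same order. With so few libraries these values cannot decide whether the numbers pair them. With the replicate number as a block 8 members were called in HOXA9_KO (RXRB the addition, adjusted p = 0.0287), 7 in SAFB_KO, 0 in MEIS1_KO (RARA, adjusted p = 0.0833) and 7 between HOXA9_KO and SAFB_KO. Fitting only the compared groups is the same fit as reported for MEIS1_KO and was not run again. Depth limits NR4A1 (32 reads at the least), PPARG and RARG, and a missed threshold there does not show equal levels.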

Other observations

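The other 39 nuclear receptor genes were mostly low. A total of 19 stayed under 1 CPM in every library, 10 reached 10 CPM in at least 1 library, and 21 passed the filter on low counts. Of these 21, 7 rose and 6 fell in HOXA9_KO, 2 rose and 4 fell in SAFB_KO, and none was called in MEIS1_KO by edgeR. The HOXA9_KO count is near the 57.5% of all tested genes called there. The counts in SAFB_KO and MEIS1_KO are under the 35.5% and 8.81% called there. The list median was -0.26 in HOXA9_KO and -0.15 in SAFB_KO, beside -0.07 and -0.02 for all tested genes. ESRRA, an estrogen-related receptor of mitochondrial genes, measured 27.4 ± 1.52 CPM in NT, 49.3 ± 0.97 in HOXA9_KO and 32.5 ± 2.12 in SAFB_KO (SD, n = 3), changes of 0.85 ± 0.05 (adjusted p = 5.39e-19) and 0.25 ± 0.06 (adjusted p = 3.82e-04). NR1H2, the liver X receptor beta gene, rose by 0.46 and 0.24, and NR2C2, an orphan receptor that binds AGGTCA repeats, fell by 0.37 and 0.18. Under nuclear protein-coding scaling the counts became 2 higher and 10 lower in HOXA9_KO and 0 higher and 6 lower in SAFB_KO, where ESRRA (adjusted p = 0.123) and NR1H2 (0.133) were no longer called. That scaling called 2861 of all 18876 tested genes higher and 9293 lower in HOXA9_KO, and 1712 and 5535 in SAFB_KO. In MEIS1_KO the smallest adjusted p was that of NR1H3, the liver X receptor alpha gene, at 0.0565 (change 0.53 ± 0.17).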
